A study of Mus musculus with 31 samples.

Results

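The genes described here make up 2 groups: 23 genes of glucose uptake, glycolysis and the fate of pyruvate, and 13 genes of the cellular response to low oxygen. They were picked by gene symbol, and all 36 were found among the 24421 genes of the count table. RNA was sequenced from primary fibroblasts of the hearts of C57Bl/6 mice aged 8 to 12 weeks, held in flat (2D) or three-dimensional (3D) culture or moved from one to the other. The 10 groups were 3D-2D-3D, 3D-2D-2D, 3D-2D, 3D, 2D, 3D-5days, 2D-5days and 2D culture on substrates of 0.5, 8 and 64 kPa, where kPa is a unit of stiffness. Each group had 3 libraries except 3D-2D, which had 2, giving 29 in all. Names such as 3D-2D were taken to list successive arrangements. No treatment, transgene or cell sort separates the groups. Apart from the 5 days of 2 groups, no source used here gives the time in each arrangement, the culture material, the oxygen level or how many mice went into a library. Another 2 libraries, of chromatin accessibility, were not analysed here.

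Glycolysis breaks glucose down to pyruvate in the cytosol. Glucose enters through the Slc2a transporters and is trapped by hexokinases, phosphofructokinase sets the pace, and lactate dehydrogenase and the Slc16a transporters dispose of pyruvate as lactate when mitochondria do not use it. Oxygen is sensed by prolyl hydroxylases encoded by Egln genes, which mark the alpha subunits Hif1a and Epas1 for destruction while oxygen is plentiful. When oxygen falls the subunits persist and bind DNA at hypoxia response elements of many target genes, most glycolytic enzymes among them. This control acts chiefly on the Hif1a and Epas1 proteins, which were not measured. Cultured cardiac fibroblasts are known to use much glucose as they turn into contractile, matrix-making cells.

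Regions just before a transcript start are shown for 6 members, because hypoxia response elements can lie in such regions. They are the 3 glycolytic and the 3 oxygen-sensing members with the widest range of group means over the 10 groups. Each run is the 250 bases before that start, from RefSeq on GRCm38.p6 (mm10), read 5′ to 3′ on the strand of the gene. For Slc16a3 the run lies inside the gene, which spans chr11:120948484-120959000. For the others it ends just before the start of the gene. Capitals mark the letters ACGTG or GCGTG, the core of a hypoxia response element, or the same letters on the other strand, which read CACGT or CACGC. Where both strands match at CACGTG the 2 matches overlap. The windows lie at chr6:124769674-124769923 on the minus strand for Eno2, chr11:120948817-120949066 on the plus strand for Slc16a3 and chr6:5496279-5496528 on the minus strand for Pdk4. Those of Adm, Ddit4 and Egln3 lie at chr7:110627407-110627656 (plus), chr10:59951771-59952020 (minus) and chr12:54203875-54204124 (minus).
Eno2: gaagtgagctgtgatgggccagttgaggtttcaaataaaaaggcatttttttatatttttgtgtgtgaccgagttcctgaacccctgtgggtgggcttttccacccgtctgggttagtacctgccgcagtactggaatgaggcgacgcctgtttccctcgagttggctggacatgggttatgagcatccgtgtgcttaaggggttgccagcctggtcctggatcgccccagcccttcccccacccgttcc
Slc16a3: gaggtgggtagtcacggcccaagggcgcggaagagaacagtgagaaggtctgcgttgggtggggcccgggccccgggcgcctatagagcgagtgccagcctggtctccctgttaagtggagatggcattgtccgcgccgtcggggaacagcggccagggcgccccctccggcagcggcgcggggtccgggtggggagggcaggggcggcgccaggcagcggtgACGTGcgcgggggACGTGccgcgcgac
Pdk4: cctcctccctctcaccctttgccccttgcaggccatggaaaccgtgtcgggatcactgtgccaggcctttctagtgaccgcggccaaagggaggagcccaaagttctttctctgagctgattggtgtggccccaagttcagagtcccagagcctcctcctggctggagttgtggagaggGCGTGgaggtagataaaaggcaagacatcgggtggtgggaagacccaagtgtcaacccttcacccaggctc
Adm: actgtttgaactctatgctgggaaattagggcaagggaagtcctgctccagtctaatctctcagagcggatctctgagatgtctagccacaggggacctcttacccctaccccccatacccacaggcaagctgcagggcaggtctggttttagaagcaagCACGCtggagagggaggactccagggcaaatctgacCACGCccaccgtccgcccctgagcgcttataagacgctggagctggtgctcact
Ddit4: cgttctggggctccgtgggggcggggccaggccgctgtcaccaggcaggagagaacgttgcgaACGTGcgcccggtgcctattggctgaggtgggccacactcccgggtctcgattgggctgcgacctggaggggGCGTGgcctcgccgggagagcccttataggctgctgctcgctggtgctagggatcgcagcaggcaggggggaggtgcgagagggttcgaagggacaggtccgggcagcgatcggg
Egln3: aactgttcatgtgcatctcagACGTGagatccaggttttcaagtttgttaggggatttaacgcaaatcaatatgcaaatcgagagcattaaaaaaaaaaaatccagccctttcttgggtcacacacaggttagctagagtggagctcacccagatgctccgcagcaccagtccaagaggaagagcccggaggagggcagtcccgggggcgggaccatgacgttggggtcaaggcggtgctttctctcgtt

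Of the 36 members, 32 had such a window, 8 of them more than 1 (42 windows in all), and Slc2a3, Ndrg1, Bnip3l and Epas1 had none. Some windows, such as that of Hif1a, lie inside the span of the gene, as that of Slc16a3 does. With a gene counted once if any of its windows matched, 18 of the 32 genes held ACGTG (56.3%), 20 held GCGTG (62.5%) and 28 held at least one of them (87.5%). Among 10597 tested genes counted in the same way the shares were 24.6%, 49.0% and 60.1%. The Ddit4 window holds both motifs, those of Slc16a3 and Egln3 only ACGTG, those of Adm and Pdk4 only GCGTG, and that of Eno2 neither. A match is a description of letters and says nothing of binding in these cells.

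Gene counts per library came to between 8509987 and 29909400, and the members took 0.496% to 1.15% of them. The 10 fibroblast markers were detected in every library, with a summed level of 12238 to 72825 CPM (counts scaled to the same effective total in each library). Lymphocyte markers stayed at or below 0.921 CPM, with Cd3e and Cd3g at 0 in all 29 libraries, while mural markers summed to 272 to 1810 CPM, endothelial markers to 12.8 to 111 CPM and cardiomyocyte markers to 1.96 to 207 CPM. Within the cardiomyocyte sum Tnnt2 reached 203 CPM and every other marker stayed at or below 3.59 CPM. Within the mural sum Pdgfrb had 227 to 1401 CPM, and Notch3 and Cspg4 reached 417 and 172 CPM. Rgs5, Kcnj8 and Abcc9 stayed at or below 4.80 CPM, so these 2 sums follow few genes. The 12 macrophage markers were detected in every library and varied widely, from 202 to 11023 CPM, and are given beside the results. Xist reads came with only 0 to 7 Y-linked reads in libraries 1 and 2 of 3D-2D-3D, 3D-2D, 3D and 2D, and 3D-2D has no other library. Library 3 of 3D-2D-3D, 3D and 2D, all 3D-2D-2D libraries and all 5-day libraries held both kinds. The substrate libraries held 1 to 7 Xist reads. The labels do not say whether the libraries of a group are separate cultures, so the spread that the p-values measure may be only technical. In cultures of this kind fewer cells of a type and less RNA per cell cannot be told apart.

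Of the members, 35 passed the filter on low counts. The exception was Eno1, alpha-enolase, the main enolase of most tissues, with 0 to 5 counts per library, and its near-identical copy Eno1b had 7 to 35 counts. Reads with more than 1 alignment were left out of the gene counts and came to between 14.0% and 28.4% of the counted and uncounted reads, so the level of Eno1 is not known from these data. The other 22 glycolytic and 13 oxygen-sensing members were tested in each comparison. Their group mean log2 CPM ranged over a median of 1.82 from the lowest to the highest group, against 1.19 for all 14036 genes tested. Adm had the widest range of the oxygen-sensing members (4.91 log2), and Eno2 (3.30), Slc16a3 (3.28) and Pdk4 (3.23) had the widest of the glycolytic members.

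**Figure D1:**
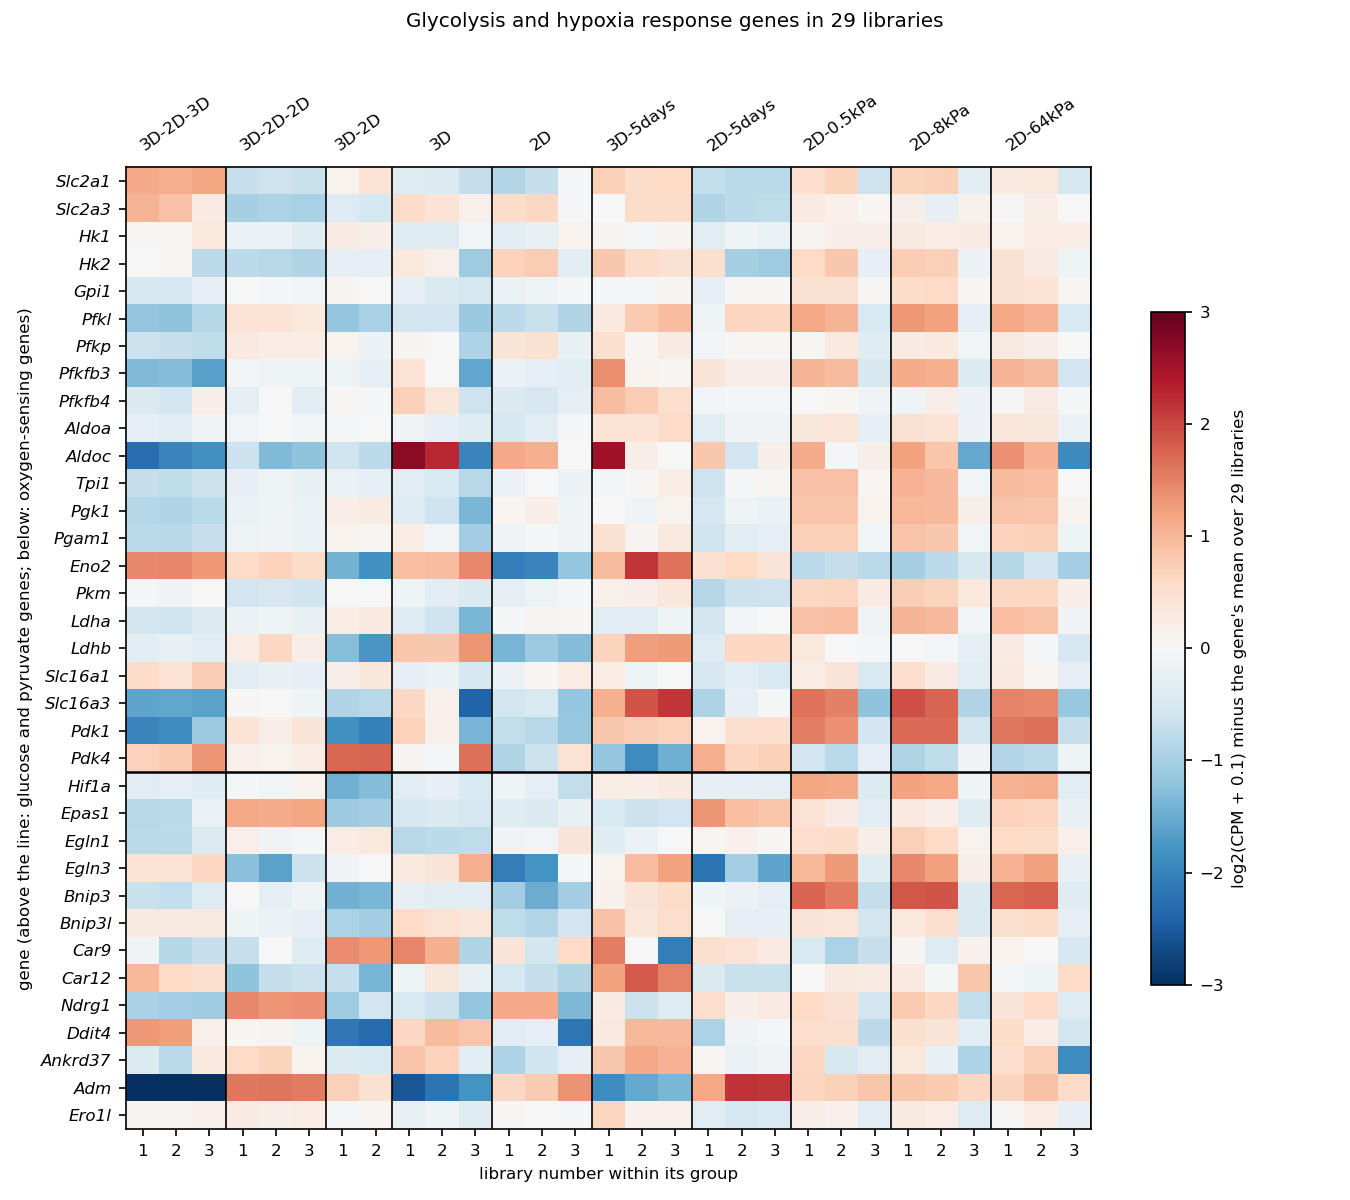
Level of the 35 tested members in each of the 29 libraries, as log2(CPM + 0.1) minus the mean of the gene over all libraries; columns are libraries in their groups, rows are genes, and the colour scale ends at 3 in either direction. Adm is low in all 3 libraries each of 3D-2D-3D, 3D and 3D-5days and high in all others, and in each substrate group libraries 1 and 2 are above library 3 for most members.

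The first comparison set 3D culture against 2D culture. Most enzymes of the glycolytic chain did not pass the test, while the isoforms Eno2 and Ldhb rose and Pgk1 and Ldha fell in 3D. Among the oxygen-sensing members Ddit4, Egln3, Bnip3l and Car12 rose, and Adm, Ndrg1 and Egln1 fell. In all 13 of 35 members were called at an adjusted p under 0.05, 8 higher and 5 lower, where 54% of all genes tested were called (26.7% higher and 27.3% lower), so the share of members called was below that of all genes. The median log2 change was 0.01 for the glycolytic members, 0.62 for the oxygen-sensing members and 0.03 for all genes. Values after ± are standard errors unless marked SD, and n is 3 libraries per group except 2 for 3D-2D.

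Eno2, the enolase of neurons, had 30.3, 31.2 and 44.0 CPM in 3D and 3.83, 4.02 and 7.24 CPM in 2D. The groups were far apart, and the log2 change was 2.77 ± 0.25 (adjusted p = 1.05e-08). Ldhb, the lactate dehydrogenase subunit of oxidative tissues, had 24.1, 23.6 and 34.1 CPM in 3D against 5.07, 6.31 and 5.42 CPM in 2D, a change of 2.28 ± 0.25 (adjusted p = 9.27e-08). Library 3 of 3D was the highest for both genes, and no 3D library overlapped with 2D. Ldha, the subunit of glycolytic tissues, moved the other way, with a mean of 357 ± 114 CPM in 3D and 603 ± 33.2 CPM in 2D (SD, n = 3 each) and a change of -0.75 ± 0.29 (adjusted p = 0.0319). Pgk1, phosphoglycerate kinase, fell by 0.78 ± 0.23 on the log2 scale (adjusted p = 0.00745).

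Pyruvate dehydrogenase kinases keep pyruvate out of the mitochondrial oxidation pathway, and Pdk4 is the one known to respond to fasting. Pdk4 had 11.8, 10.7 and 35.2 CPM in 3D and 5.91, 7.10 and 15.02 CPM in 2D, a called change of 1.02 ± 0.38 (adjusted p = 0.0260). Library 3 was the highest of both groups, the groups overlapped, and without 3D library 3 the change was 0.23. Pdk1, which is a target of hypoxia-inducible factors, had 42.9, 29.4 and 10.1 CPM in 3D against 15.8, 14.8 and 12.0 CPM in 2D (0.95 ± 0.59, adjusted p = 0.177). Slc16a3, the lactate exporter of glycolytic cells, had 50.0, 36.4 and 6.07 CPM in 3D against 22.0, 23.7 and 14.6 CPM in 2D (0.62 ± 0.72, adjusted p = 0.488). For these genes 3D libraries 1 and 2 lay above all 2D libraries and 3D library 3 below them. Aldoc, the aldolase of brain, had the same layout, with 9.60, 6.97 and 0.278 CPM in 3D and 3.16, 3.00 and 1.39 CPM in 2D (1.18 ± 0.85, adjusted p = 0.249).

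The summed macrophage markers had a like layout, at 7992, 5601 and 202 CPM in 3D libraries 1, 2 and 3 against 1098 to 1381 CPM in 2D, and 4 of the 12 markers were called, all higher. Their part in the levels of Slc16a3, Pdk1 and Aldoc was not tested. Hk3, a hexokinase of myeloid cells that is not a member, was called higher in 3D, at 118 CPM in 3D and 17.5 CPM in 2D (2.74 ± 0.85, adjusted p = 0.01002).

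**Figure D2:**
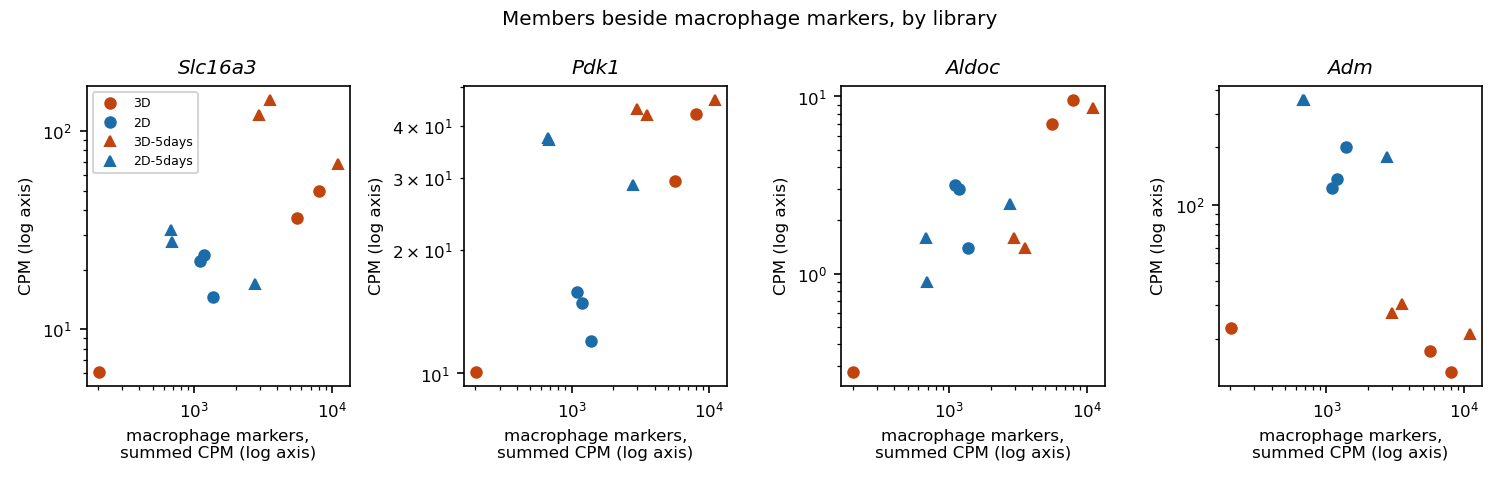
Level of Slc16a3, Pdk1, Aldoc and Adm (vertical, CPM on a log axis) against the summed level of 12 macrophage markers (horizontal, CPM on a log axis) in the 12 libraries of the 3D, 2D, 3D-5days and 2D-5days groups, 1 point per library. The 3D library with 202 CPM of macrophage markers has the lowest Slc16a3, Pdk1 and Aldoc, and Adm is between 13.4 and 30.4 CPM in the 3D and 3D-5days libraries.

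Adm encodes adrenomedullin, a vasodilator peptide and a textbook target of hypoxia-inducible factors. It had 13.4, 17.2 and 22.8 CPM in 3D and 122, 136 and 202 CPM in 2D. All 3D libraries were below all 2D libraries, and the log2 change was -3.11 ± 0.23 (adjusted p = 5.57e-10). Egln1, the main prolyl hydroxylase, also fell (-0.88 ± 0.16, adjusted p = 9.32e-05), and Ndrg1, a stress-responsive gene, had 14.5, 12.5 and 8.75 CPM in 3D and 43.8, 43.3 and 7.70 CPM in 2D (-1.40 ± 0.46, adjusted p = 0.0144). The fall of Ndrg1 rests on libraries 1 and 2, since library 3 of the 2 groups differed by 0.20 in the other direction.

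Ddit4, which restrains mTOR signalling under stress, had 143, 179 and 166 CPM in 3D and 74.0, 77.1 and 20.4 CPM in 2D (1.52 ± 0.42, adjusted p = 0.00473). Egln3, the prolyl hydroxylase that is itself induced by hypoxia, had 8.99, 9.69 and 15.8 CPM in 3D and 1.66, 2.05 and 7.17 CPM in 2D (1.60 ± 0.50, adjusted p = 0.0104). Both were higher in every 3D library than in any 2D library. Bnip3l, a receptor for the removal of mitochondria, rose by 1.2 ± 0.23 (adjusted p = 0.000141). Its relative Bnip3 had 35.7, 35.1 and 35.1 CPM in 3D and 21.5, 15.5 and 21.2 CPM in 2D, which did not overlap but missed the threshold (0.86 ± 0.53, adjusted p = 0.174). Car12, a carbonic anhydrase of the cell surface, was low in both groups, with 1.32, 1.91 and 1.25 CPM in 3D and 0.998, 0.868 and 0.749 CPM in 2D (0.79 ± 0.29, adjusted p = 0.0282). Hif1a itself was at 204 ± 14.8 CPM in 3D and 203 ± 41.6 CPM in 2D (SD, n = 3 each), and Epas1 at 113 ± 2.86 CPM in 3D and 125 ± 10.0 CPM in 2D.

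Pfkfb4, one of the enzymes that make the activator of phosphofructokinase, was the last called member (0.66 ± 0.23, adjusted p = 0.0205). The calls of Adm, Bnip3l, Ddit4, Egln1, Eno2, Ldhb and Pgk1 stood with any 1 library left out. Those of the other 6 ended in some runs: Car12 without 2D library 2 (0.79), 2D library 3 (0.65) or 3D library 2 (0.56), Ldha without 2D library 2 (-0.72), 2D library 3 (-0.77) or 3D library 3 (-0.54), and Ndrg1 without 2D library 1 (-1.08), 2D library 2 (-1.09) or 3D library 3 (-1.23). Egln3 lost its call without 2D library 1 (1.27), 2D library 2 (1.32) or 3D library 3 (1.27) and reached 2.61 without 2D library 3. Pdk4 lost it without 2D library 1 (0.79), 2D library 2 (0.86) or 3D library 3 (0.23) and reached 1.55 without 2D library 3, and Pfkfb4 lost it without 2D library 1 (0.64), 2D library 2 (0.61), 3D library 1 (0.35) or 3D library 2 (0.59). With the replicate number as a block, Car12 (0.76, adjusted p = 0.119), Ddit4 (1.71, 0.0691), Ldha (-0.81, 0.0627), Ndrg1 (-1.09, 0.158) and Pfkfb4 (0.57, 0.258) lost their call, and Bnip3 (0.88, adjusted p = 0.0160), Hk2 (-0.58, 0.0206) and Pfkp (-0.49, 0.0318) gained one.

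**Figure D3:**
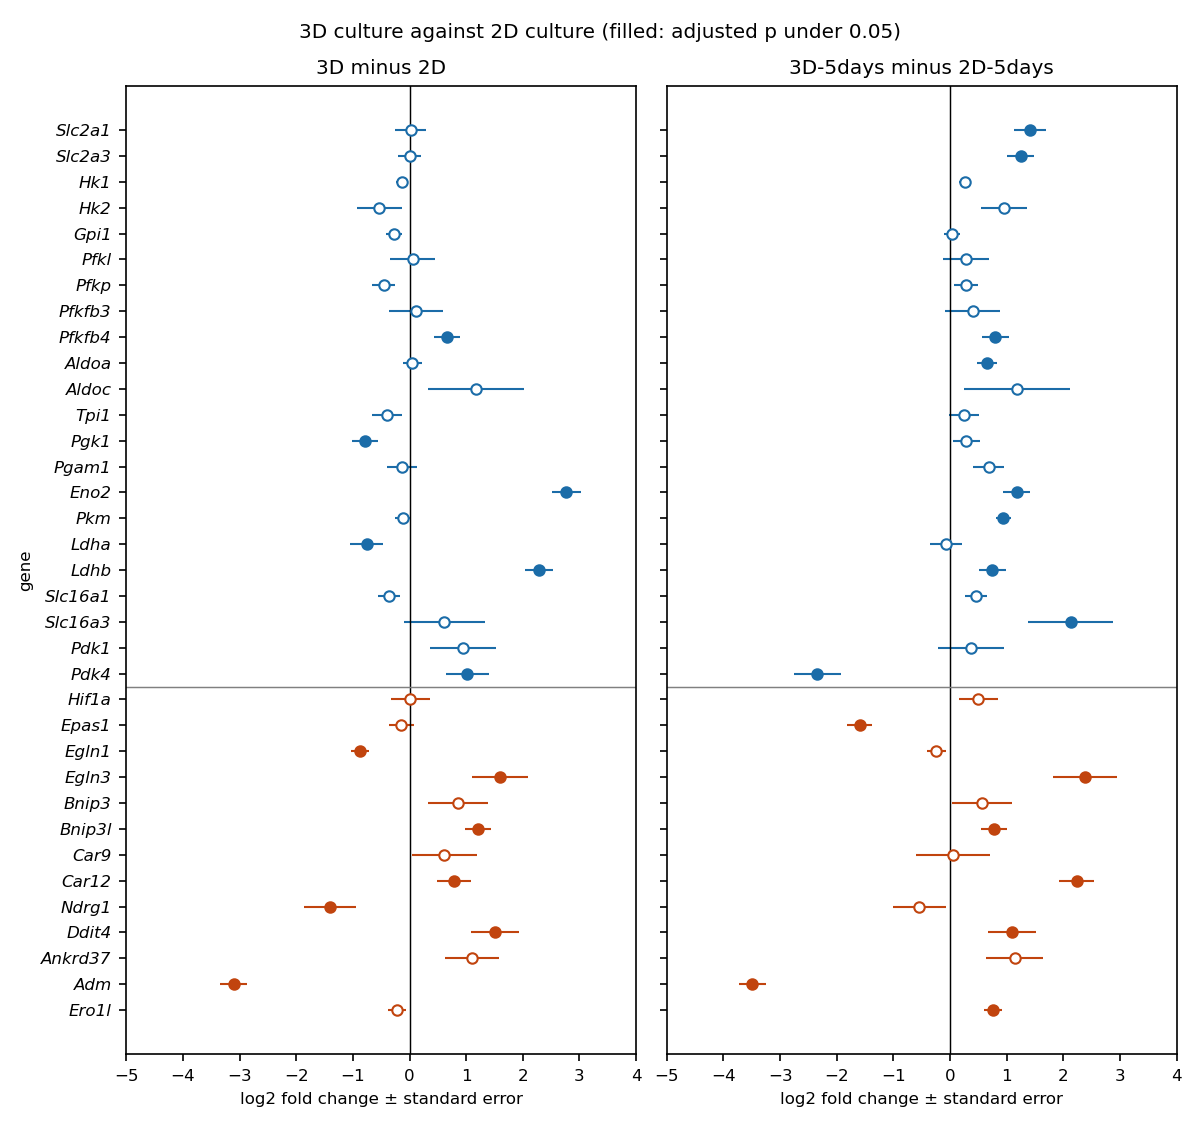
Log2 fold change ± standard error of the 35 tested members, 3D minus 2D on the left and 3D-5days minus 2D-5days on the right; filled points have an adjusted p under 0.05, blue points are glycolytic and orange points oxygen-sensing members. Adm lies at -3.11 and -3.49, Pdk4 at 1.02 and -2.34, and 29 of 35 members lie above 0 at 5 days.

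The same comparison was made in the cultures labelled 5 days. At 5 days 16 of the 35 members were called, 13 higher and 3 lower in 3D-5days, where 32.4% of all genes were called (14.9% higher and 17.5% lower). The glucose transporters, Aldoa and Pkm, which had not passed the test in the first comparison, were among those that rose, and Adm fell again. The median log2 change was 0.55 for the glycolytic and 0.56 for the oxygen-sensing members, against 0.00 for all genes, and 29 of 35 values were above 0.

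Slc2a1, the basal glucose transporter, had 184 ± 11.1 CPM in 3D-5days and 69.1 ± 1.48 CPM in 2D-5days (SD, n = 3 each), a change of 1.41 ± 0.29 (adjusted p = 0.000571). Slc2a3, a transporter of high affinity, rose by 1.24 ± 0.24 (adjusted p = 0.000345). Pkm, pyruvate kinase, rose by 0.94 ± 0.13 (adjusted p = 8.50e-06), Aldoa, the muscle-type aldolase, by 0.65 ± 0.17 (adjusted p = 0.00601) and Pfkfb4 by 0.80 ± 0.24 (adjusted p = 0.0124). Between aldolase and pyruvate kinase in the chain, Tpi1 (0.24 ± 0.26), Pgk1 (0.29 ± 0.23) and Pgam1 (0.68 ± 0.27, adjusted p = 0.0571) did not pass. Eno2 had 31.3, 72.7 and 50.8 CPM in 3D-5days against 22.5, 24.7 and 21.2 CPM in 2D-5days (1.18 ± 0.24, adjusted p = 0.000540). Ldhb had 21.6, 32.1 and 33.1 CPM in 3D-5days against 10.3, 20.8 and 20.7 CPM in 2D-5days (0.75 ± 0.24, adjusted p = 0.0176). Both stood higher in every 3D-5days library.

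Slc16a3 had 68.4, 121 and 144 CPM in 3D-5days and 17.0, 27.6 and 31.5 CPM in 2D-5days (2.13 ± 0.75, adjusted p = 0.0327). Pdk4 had 4.89, 2.92 and 3.98 CPM in 3D-5days and 23.8, 17.5 and 18.2 CPM in 2D-5days. It was the one glycolytic member that fell at 5 days (-2.34 ± 0.42, adjusted p = 0.000151). Pdk1 had 46.5, 44.2 and 42.6 CPM in 3D-5days and 28.7, 37.1 and 37.5 CPM in 2D-5days (0.37 ± 0.58, adjusted p = 0.675). Aldoc had 8.56, 1.59 and 1.39 CPM in 3D-5days and 2.48, 0.900 and 1.58 CPM in 2D-5days, so that library 1 stood apart in both groups. Library 1 also had the most macrophage marker RNA in both groups, at 11023 CPM in 3D-5days (against 2974 and 3549 CPM in libraries 2 and 3) and 2771 CPM in 2D-5days (against 689 and 680 CPM). For Slc16a3, in contrast, library 1 was the lowest of both groups. For Pdk1 it was the highest of 3D-5days and the lowest of 2D-5days. At 5 days 2 of the 12 macrophage markers were called, both higher in 3D-5days, and 6 of 8 endothelial markers were called higher, with sums of 101 to 111 CPM in 3D-5days and 33.2 to 34.6 CPM in 2D-5days. The part of either cell type in the values of the members was not tested.

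Among the oxygen-sensing members, Adm had 21.2, 27.1 and 30.4 CPM in 3D-5days and 178, 356 and 354 CPM in 2D-5days (-3.49 ± 0.24, adjusted p = 1.99e-10). Epas1, the second alpha subunit, also fell, with a mean of 107 ± 7.70 CPM in 3D-5days and 324 ± 60.8 CPM in 2D-5days (SD, n = 3 each; -1.59 ± 0.22, adjusted p = 7.43e-06). Egln3 had 7.90, 13.9 and 17.1 CPM in 3D-5days and 1.54, 3.60 and 2.37 CPM in 2D-5days (2.38 ± 0.56, adjusted p = 0.00212). Every one of these groups was separate from its counterpart. Car12 had 3.56, 5.59 and 4.38 CPM in 3D-5days against 1.06, 0.900 and 0.904 CPM in 2D-5days (2.23 ± 0.31, adjusted p = 7.39e-06). Ddit4 had 113, 185 and 181 CPM in 3D-5days against 48.0, 86.5 and 89.4 CPM in 2D-5days, with an adjusted p of 0.04999 that lay just under the threshold (1.10 ± 0.42). Ero1l, an oxidase of the endoplasmic reticulum, rose by 0.75 ± 0.16 (adjusted p = 0.000758) and Bnip3l by 0.78 ± 0.23 (adjusted p = 0.0115). Bnip3 had 47.8, 57.8 and 64.3 CPM in 3D-5days and 40.0, 38.7 and 36.4 CPM in 2D-5days (0.56 ± 0.53, adjusted p = 0.448), and Ndrg1 had 23.4, 12.7 and 15.1 CPM in 3D-5days against 28.5, 22.2 and 23.4 CPM in 2D-5days (-0.54 ± 0.47, adjusted p = 0.410).

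With any 1 library left out, 12 of the 16 calls stood. Ddit4 lost its call without 2D-5days library 1 (0.86), 2 (1.23) or 3 (1.27) or 3D-5days library 2 (1.01) or 3 (1.0), and Slc16a3 without the same libraries (1.91, 2.21, 2.33, 2.10 and 1.90). Ldhb lost it without 2D-5days library 1 (0.48), 3D-5days library 2 (0.69) or 3D-5days library 3 (0.64), and Bnip3l without 3D-5days library 1 (0.62). With the replicate number as a block 29 members were called, and 39.6% of all genes. The added ones were Aldoc (1.04), Ankrd37 (1.16), Bnip3 (0.59), Hif1a (0.53), Hk1 (0.30), Pdk1 (0.40), Pfkl (0.33), Pfkp (0.30), Pgam1 (0.71), Pgk1 (0.32), Slc16a1 (0.48) and Tpi1 (0.30), all higher, and Ndrg1 (-0.53).

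Whether the 3D effect at 5 days differed from that in the groups with no stated time was tested as a contrast of the 2 differences. It was called for 13 of 35 members, 9 with the larger value at 5 days and 4 with the smaller, where 25.5% of all genes were called. The largest was Pdk4 (-3.37 ± 0.56, adjusted p = 0.000191), which rose in 3D and fell in 3D-5days. Eno2 (-1.59 ± 0.34, adjusted p = 0.00168) and Ldhb (-1.54 ± 0.33, adjusted p = 0.00186) rose in both, by less at 5 days. Slc2a1 (1.39 ± 0.40, adjusted p = 0.0131), Slc2a3 (1.24 ± 0.32, adjusted p = 0.00659) and Pkm (1.06 ± 0.19, adjusted p = 0.000285) were called in the other direction. With the replicate number as a block Slc2a3 (1.27, adjusted p = 0.0561) and Hk1 (0.43, adjusted p = 0.0810) lost their call and Hk2 gained one (1.71). For Adm the difference was -0.39 ± 0.31 (adjusted p = 0.391).

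The next comparison concerned 3D cells transferred to flat culture. Several members took the opposite course to that seen in the first comparison, which shares its 3D libraries, so the 2 are not independent. In 3D-2D against 3D, 18 of 35 members were called, 8 higher and 10 lower, where 56.5% of all genes were called. Among the glycolytic members 6 rose and 5 fell, and among the oxygen-sensing members 2 rose and 5 fell.

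Adm had 131 and 109 CPM in 3D-2D, above all 3 libraries of 3D (2.75 ± 0.24, adjusted p = 6.07e-09). Eno2 had 6.01 and 4.57 CPM in 3D-2D (-2.73 ± 0.30, adjusted p = 1.10e-07) and Ldhb 5.56 and 3.96 CPM (-2.51 ± 0.29, adjusted p = 2.26e-07), both below every 3D library. Ddit4 had 20.9 and 18.6 CPM in 3D-2D, its lowest group mean (-3.04 ± 0.53, adjusted p = 5.43e-05). Pdk1 had 7.48 and 6.47 CPM in 3D-2D (-1.97 ± 0.70, adjusted p = 0.0213), below the lowest 3D library at 10.1 CPM. Aldoc had 0.877 and 0.753 CPM in 3D-2D (-2.76 ± 1.06, adjusted p = 0.0319), between 3D library 3 and the other two. Bnip3l (-1.46 ± 0.26), Slc2a3 (-0.88 ± 0.24), Car12 (-1.09 ± 0.33), Hif1a (-1.02 ± 0.40) and Epas1 (-0.59 ± 0.25) also fell. Car12 had 0.877 and 0.502 CPM in 3D-2D.

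Egln1 (1.06 ± 0.18), Ldha (0.99 ± 0.32), Pgk1 (0.96 ± 0.26), Slc2a1 (0.75 ± 0.31), Slc16a1, a transporter of lactate and pyruvate (0.58 ± 0.21), Hk1, the housekeeping hexokinase (0.48 ± 0.11), and Gpi1, glucose phosphate isomerase (0.43 ± 0.15), rose in 3D-2D. Pdk4 had 36.8 and 37.5 CPM in 3D-2D, above all 3D libraries but short of the threshold (0.94 ± 0.40, adjusted p = 0.0510). Slc16a3 had 17.5 and 18.1 CPM, Bnip3 16.2 and 17.0 CPM, Egln3 6.81 and 7.28 CPM and Ndrg1 9.31 and 13.3 CPM in 3D-2D, and none of these 4 passed the test. The macrophage markers summed to 773 and 572 CPM in 3D-2D against 7992, 5601 and 202 CPM in 3D, and 8 of 12 were called lower. Their part was not tested.

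With any 1 library left out 9 of the 18 calls stood. Slc2a1 and Epas1 lost theirs in each of the 5 runs (0.58 to 0.90 and -0.61 to -0.57). Aldoc lost it without 3D library 1 (-2.12) or 2 (-2.55) or 3D-2D library 1 (-2.88) or 2 (-2.66), Hif1a without the same libraries (-1.03, -0.97, -0.96 and -1.09), and Pdk1 without 3D library 1 (-1.50), 3D-2D library 1 (-2.08) or 3D-2D library 2 (-1.87). Gpi1 lost it without 3D library 3 (0.38), 3D-2D library 1 (0.38) or 3D-2D library 2 (0.48), Ldha without 3D library 3 (0.76) or 3D-2D library 2 (0.95), Slc16a1 without the same libraries (0.51 and 0.50), and Car12 without 3D-2D library 2 (-0.76).

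The 3D-2D cultures were also set against cells kept in 2D. In 3D-2D against 2D, 5 of 35 members were called, 2 higher and 3 lower. Of all genes 14.4% were called (6.85% higher and 7.54% lower), so the share of members called was close to that of all genes. Pdk4 rose (1.97 ± 0.41, adjusted p = 0.00356), with both 3D-2D libraries above all 2D libraries. Hk1 rose by 0.34 ± 0.11 (adjusted p = 0.0428). Slc2a3 (-0.88 ± 0.25, adjusted p = 0.0212), Ddit4 (-1.53 ± 0.50, adjusted p = 0.0421) and Epas1 (-0.74 ± 0.25, adjusted p = 0.0485) fell. The groups overlapped for Ddit4, at 74.0, 77.1 and 20.4 CPM in 2D and 20.9 and 18.6 CPM in 3D-2D. Its fall rests on 2D libraries 1 and 2. None of the 5 calls stood in every run with 1 library left out: Pdk4 lost its call only without 3D-2D library 2 (1.96), Epas1 in all 5 runs (-0.78 to -0.69), and Ddit4, Hk1 and Slc2a3 without 2D library 1 (-1.29, 0.26 and -0.80), 2D library 2 (-1.25, 0.30 and -0.75), 3D-2D library 1 (-1.61, 0.31 and -0.95) or 3D-2D library 2 (-1.45, 0.38 and -0.81). For Eno2 (0.04 ± 0.28), Ldhb (-0.23 ± 0.27) and Adm (-0.36 ± 0.24) the difference did not pass the test.

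**Figure D4:**
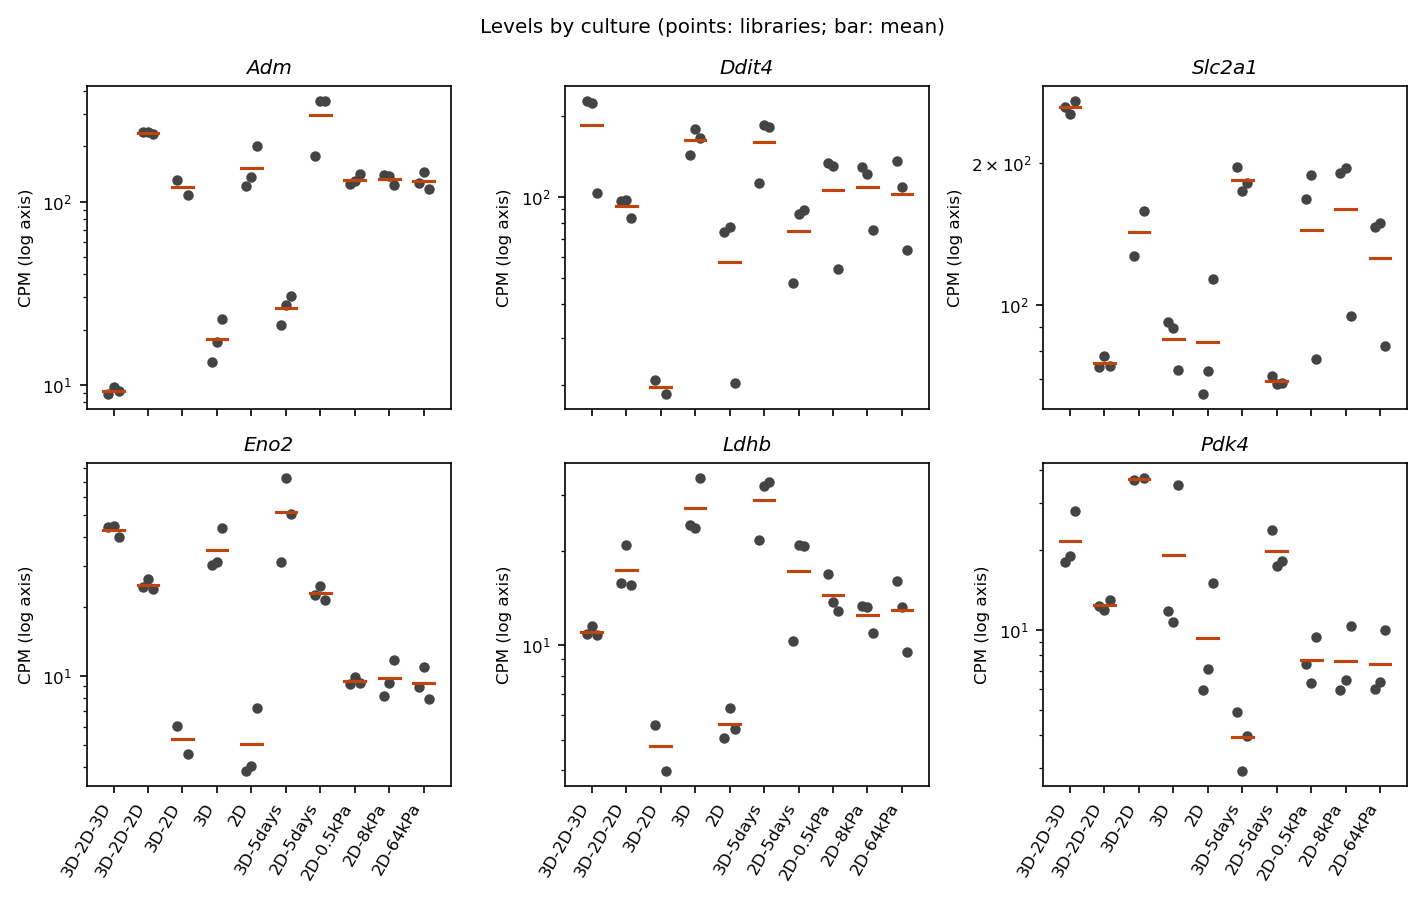
Level of 6 members (vertical, CPM on a log axis) in the 10 groups (horizontal); points are libraries and bars are group means. Adm averages 9.28 CPM in 3D-2D-3D and 238 CPM in 3D-2D-2D, Slc2a1 averages 262 CPM in 3D-2D-3D, its highest group, and Pdk4 averages 3.93 CPM in 3D-5days, its lowest.

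Cells were then returned to 3D. Relative to 3D-2D, 16 of 35 members were called in 3D-2D-3D, 8 higher and 8 lower, where 49.2% of all genes were called (24.2% higher and 25% lower). Eno2 had 44.3, 44.9 and 40.2 CPM in 3D-2D-3D (3.02 ± 0.30, adjusted p = 4.78e-08) and Ddit4 228, 223 and 104 CPM (3.23 ± 0.53, adjusted p = 3.71e-05), far above both 3D-2D libraries. Adm had 8.87, 9.71 and 9.26 CPM in 3D-2D-3D, the lowest of its 10 groups (-3.69 ± 0.25, adjusted p = 2.09e-10). Ldhb had 10.8, 11.5 and 10.8 CPM in 3D-2D-3D (1.21 ± 0.27, adjusted p = 0.000882). Bnip3l (1.25 ± 0.26), Slc2a3 (1.24 ± 0.25), Slc2a1 (0.88 ± 0.32), Hif1a (1.05 ± 0.40) and Car12, with 3.07, 2.32 and 2.10 CPM in 3D-2D-3D (1.83 ± 0.33), also rose. Car9, a carbonic anhydrase strongly induced by hypoxia in tumours, fell to 0.488 CPM in 3D-2D-3D, against 2.04 CPM in 3D-2D (-2.04 ± 0.62, adjusted p = 0.00891). Egln1 (-0.92 ± 0.18), Pgk1 (-1.08 ± 0.26), Pgam1 (-0.85 ± 0.30), Ldha (-0.77 ± 0.32), Pfkp, a phosphofructokinase subunit (-0.67 ± 0.22), and Gpi1 (-0.45 ± 0.15) fell.

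Of these calls 10 stood with any 1 library left out. Hif1a and Ldha lost theirs in each of the 5 runs (0.98 to 1.11 and -0.85 to -0.73), Slc2a1 without 3D-2D library 1 (0.73), 3D-2D library 2 (1.04) or 3D-2D-3D library 3 (0.83), and Gpi1 without 3D-2D library 1 (-0.40), 3D-2D library 2 (-0.50) or 3D-2D-3D library 2 (-0.41). Pgam1 lost it without 3D-2D library 1 (-0.83) or 2 (-0.87) and Pfkp without 3D-2D library 1 (-0.51). Macrophage markers summed to 215 to 235 CPM in 3D-2D-3D, below 3D-2D (572 to 773 CPM) and 3D-2D-2D (433 to 437 CPM). Of the 12 markers 0 were called in this comparison or the next, and their part was not tested.

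Cells returned to 3D were also set against cells carried on in 2D. Both glucose transporters rose and Adm, Ndrg1, Epas1 and several enzymes fell in 3D-2D-3D against 3D-2D-2D. Of 35 members 19 were called, 8 higher and 11 lower, where 40.4% of all genes were called (19.8% higher and 20.6% lower). The medians were -0.35 for the glycolytic and -0.32 for the oxygen-sensing members and -0.01 for all genes.

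Slc2a1 had 262, 253 and 271 CPM in 3D-2D-3D and 74.1, 78.0 and 74.5 CPM in 3D-2D-2D (1.79 ± 0.29, adjusted p = 3.44e-05), and Slc2a3 rose alike (1.78 ± 0.23, adjusted p = 2.55e-06). Slc16a1 (0.85 ± 0.19), Pkm (0.50 ± 0.13) and Hk1 (0.37 ± 0.10) also rose. Eno2 had 24.3, 26.5 and 23.9 CPM in 3D-2D-2D, below 3D-2D-3D (0.79 ± 0.23, adjusted p = 0.00937). Several enzymes of the chain moved the other way. Pfkl, the liver phosphofructokinase subunit, had 63.0 ± 8.76 CPM in 3D-2D-3D and 173 ± 6.30 CPM in 3D-2D-2D (SD, n = 3 each; -1.46 ± 0.41, adjusted p = 0.00664), and Pfkp (-0.96 ± 0.21), Pfkfb3 (-1.31 ± 0.49), Pgk1 (-0.69 ± 0.23) and Gpi1 (-0.36 ± 0.14) fell. Pdk1 had 6.68, 7.17 and 12.4 CPM in 3D-2D-3D and 35.5, 30.3 and 34.6 CPM in 3D-2D-2D (-1.93 ± 0.60, adjusted p = 0.0132). Ldhb had 15.8, 20.8 and 15.6 CPM in 3D-2D-2D, above 3D-2D-3D (-0.65 ± 0.23, adjusted p = 0.0297). Slc16a3 had 10.9, 11.0 and 10.6 CPM in 3D-2D-3D and 33.2, 32.5 and 29.7 CPM in 3D-2D-2D, apart but short of the threshold (-1.55 ± 0.74, adjusted p = 0.101). Pdk4, at 18.0, 19.1 and 28.0 CPM in 3D-2D-3D and 12.3, 11.9 and 12.9 CPM in 3D-2D-2D, did not pass either (0.81 ± 0.38, adjusted p = 0.0930), nor did Aldoc, at 0.205 to 0.323 CPM in 3D-2D-3D and 0.490 to 0.842 CPM in 3D-2D-2D.

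Adm had 239, 241 and 233 CPM in 3D-2D-2D, so that its log2 change of -4.68 ± 0.25 (adjusted p = 5.69e-12) was the largest of any member in any comparison here. Libraries 1 and 2 of 3D-2D-3D held 1 and 0 Y-linked reads, against 663 to 960 in the 3D-2D-2D libraries. The part of this in the values was not tested. Between library 3 of the 2 groups, both with Y-linked reads, the change of Adm was -4.65. Ndrg1 had 9.99, 9.67 and 9.32 CPM in 3D-2D-3D and 54.2, 50.0 and 51.6 CPM in 3D-2D-2D (-2.43 ± 0.47, adjusted p = 0.000304). Epas1 averaged 105 ± 28.0 CPM in 3D-2D-3D and 349 ± 7.52 CPM in 3D-2D-2D (SD, n = 3 each; -1.73 ± 0.22, adjusted p = 1.94e-06). Both were low in all 3 libraries of 3D-2D-3D. Egln3 had 9.86, 9.94 and 11.4 CPM in 3D-2D-3D and 3.03, 2.33 and 4.64 CPM in 3D-2D-2D (1.63 ± 0.52, adjusted p = 0.0159), and Car12 had 0.590, 0.857 and 0.910 CPM in 3D-2D-2D (1.67 ± 0.31, adjusted p = 0.000153). Egln1 fell (-0.67 ± 0.16). Ddit4 had 96.9, 97.7 and 83.8 CPM in 3D-2D-2D, below every 3D-2D-3D library (0.99 ± 0.42, adjusted p = 0.0629), and Bnip3 had 27.9, 26.5 and 33.4 CPM in 3D-2D-3D and 43.6, 36.7 and 40.0 CPM in 3D-2D-2D (-0.46 ± 0.52, adjusted p = 0.518).

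With any 1 library left out 13 of the 19 calls stood. Pfkfb3 lost its call in each of the 6 runs (-1.35 to -1.21) and Gpi1 in all but that without 3D-2D-3D library 3 (-0.38 to -0.29). Ldhb lost it without 3D-2D-3D library 1 (-0.62), 2 (-0.67) or 3 (-0.63) or 3D-2D-2D library 2 (-0.50), Pgk1 without 3D-2D-3D library 1 (-0.68) or 2 (-0.65) or 3D-2D-2D library 2 (-0.66) or 3 (-0.70), Pdk1 without 3D-2D-3D library 1 (-1.75) or 2 (-1.79), and Egln3 without 3D-2D-2D library 1 (1.56) or 2 (1.44). With library totals in place of scaling factors the median of all genes shifted to 0.22 and calls split into 4747 higher and 1893 lower genes, against 2782 and 2895, and Gpi1, Ldhb, Pfkfb3 and Pgk1 lost their call (-0.13, -0.42, -1.08 and -0.46). The directions of the 19 called members were unchanged under this scaling.

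The last comparisons were between 2D cultures on substrates of 0.5, 8 and 64 kPa. None of the 35 members was called in any of the 3 pairs by edgeR, where 0% of all genes were called, and DESeq2 called 0 members as well. At an unadjusted p under 0.05 there were 0 members and 82, 175 and 241 genes for 8 against 0.5 kPa, 64 against 0.5 kPa and 64 against 8 kPa. Adm averaged 132, 133 and 130 CPM at 0.5, 8 and 64 kPa. With the replicate number as a block, 3 members were called in 64 kPa against 8 kPa, namely Epas1 (0.35, adjusted p = 0.00346), Slc16a3 (-0.34, adjusted p = 0.00346) and Slc2a1 (-0.33, adjusted p = 0.00121) (4.73% of all genes were called).

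The members differed more by library number than by stiffness. Bnip3 had 130 to 163 CPM in libraries 1 and 2 of the 3 substrates and 26.8 to 34.1 CPM in libraries 3. Slc16a3 had 89.3 to 126 CPM in libraries 1 and 2 and 14.1 to 17.3 CPM in libraries 3, and Pdk1 had 68.9 to 87.0 against 16.5 to 17.9 CPM. For each of these genes all 6 libraries numbered 1 or 2 lay above all 3 numbered 3. Hif1a (537 to 600 against 194 to 239 CPM), Pfkl (271 to 330 against 96.2 to 108 CPM), Pfkfb3 (79.5 to 88.9 against 27.4 to 31.0 CPM), Egln3 (14.8 to 20.0 against 5.70 to 8.31 CPM) and Ldha (1075 to 1207 against 550.0 to 559.6 CPM) were split in the same way. Ndrg1 had 26.0 to 34.2 against 11.8 to 15.2 CPM and Ddit4 109 to 136 against 53.9 to 75.1 CPM.

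Of the tested members, 16 of 22 glycolytic and 9 of 13 oxygen-sensing ones had libraries 1 and 2 all above libraries 3, which held for 19.7% of all genes. Only Pdk4 was the other way round, with 5.94 to 7.40 CPM in libraries 1 and 2 and 9.39 to 10.4 CPM in libraries 3, which held for 23.1% of all genes. The mean log2 difference had a median of 0.69 for glycolytic and 0.84 for oxygen-sensing members and 0.00 for all genes, and it was at least 1 for 7 glycolytic and 5 oxygen-sensing members and 5.19% of all genes. Adm overlapped, at 124 to 146 CPM against 118 to 141 CPM, as did Eno2, at 8.16 to 10.9 against 7.94 to 11.7 CPM, Car12, at 1.34 to 1.83 against 1.79 to 2.72 CPM, and Aldoc, while Ldhb had 13.2 to 16.9 against 9.5 to 12.9 CPM. This split was noticed in the data and is a description with no test, since the labels give the numbers no meaning. The summed markers of several cell types were split by library number too. Cycling markers were at 635 to 757 CPM in libraries 1 and 2 and 1376 to 1582 CPM in libraries 3, and cardiomyocyte markers at 1.96 to 3.61 and 9.39 to 14.1 CPM. Fibroblast markers were at 21249 to 27125 CPM in libraries 1 and 2 and 12238 to 14084 CPM in libraries 3, mural markers at 531 to 627 and 397 to 439 CPM, and endothelial markers at 32.3 to 41.6 and 21.3 to 25.7 CPM. Also split was the share of reads without a unique alignment, at 21.3% to 28.4% and 17.8% to 20.8%. Macrophage markers overlapped, at 551 to 2484 CPM and 359 to 606 CPM. Their part in the split was not tested.

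**Figure D5:**
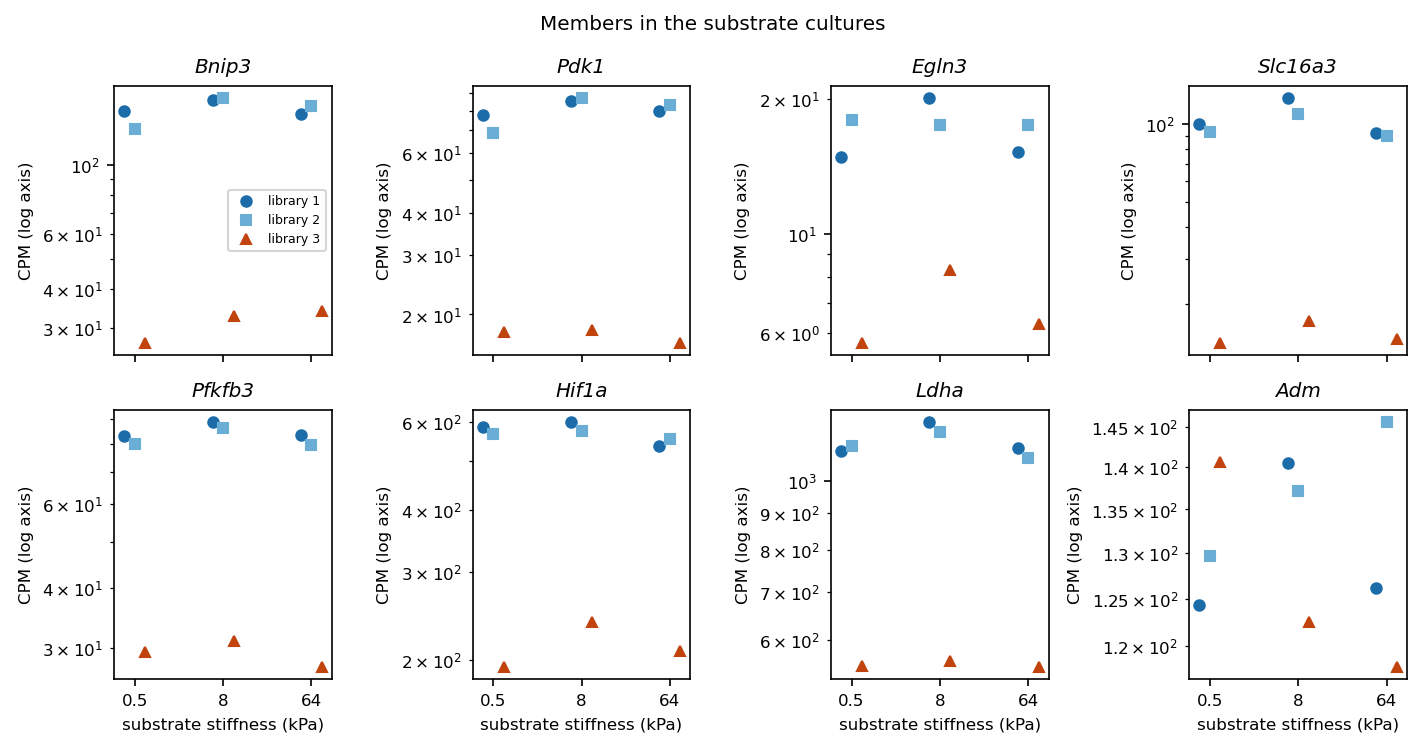
Level of 8 members (vertical, CPM on a log axis) in 2D cultures on substrates of 0.5, 8 and 64 kPa (horizontal); each point is a library, with circles, squares and triangles for libraries 1, 2 and 3. In 7 panels the triangles lie below all other points at every stiffness, and in the Adm panel, whose axis spans only 118 to 146 CPM, they overlap.

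Other genes of the same pathways were taken from 2 longer lists. Of 17 tested genes of a list of 22 further genes of glucose and pyruvate metabolism, 8 were higher and 5 lower in 3D against 2D, where 26.7% of all genes were higher and 27.3% lower. At 5 days 4 were higher and 3 lower, where 14.9% and 17.5% of all genes were. Slc2a4, the insulin-responsive glucose transporter (3.35 ± 0.67, adjusted p = 0.000240, at 1.78 CPM in 3D and 0.168 CPM in 2D), Pdk2 (1.69 ± 0.18, adjusted p = 7.85e-08) and the pyruvate dehydrogenase phosphatase Pdp1 (1.0 ± 0.26, adjusted p = 0.00230) had the largest changes in 3D against 2D besides Hk3. Of 29 tested genes of a list of 30 further oxygen-responsive genes, 11 were higher and 7 lower in 3D against 2D, and 11 were higher and 5 lower at 5 days. Ppp1r3c, a glycogen-targeting subunit (3.34 ± 0.96), Hmox1, which degrades haem (2.60 ± 0.53), Zfp395 (1.95 ± 0.34) and Vldlr, a lipoprotein receptor (1.81 ± 0.39), had the largest changes in 3D against 2D. In 3D-2D against 3D the first list had 6 higher and 9 lower and the second 6 higher and 13 lower, where 28.8% of all genes were higher and 27.7% lower. In 3D-2D against 2D they had 2 higher and 0 lower, and 0 higher and 2 lower, where 6.85% and 7.54% of all genes were. In 3D-2D-3D against 3D-2D they had 5 higher and 6 lower, and 12 higher and 5 lower, where 24.2% and 25% of all genes were. In 3D-2D-3D against 3D-2D-2D they had 1 higher and 5 lower, and 3 higher and 10 lower, where 19.8% and 20.6% of all genes were. Between substrates 0 genes of either list were called.

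Markers of other cell types and of dividing cells moved with these comparisons too. In 3D against 2D, 3 of 8 endothelial, 3 of 6 mural and 1 of 6 tested cardiomyocyte markers were called, all higher, and of 10 fibroblast markers 3 were called higher and 1 lower. In 3D-2D against 3D, 6 endothelial, 5 mural, 6 fibroblast and 1 cardiomyocyte markers were called lower and 7 of 8 cycling markers higher. In 3D-2D against 2D, 3 cycling, 2 mural, 1 endothelial and 1 fibroblast markers were called, all lower. In 3D-2D-3D against 3D-2D, 8 cycling markers were called lower, 3 fibroblast, 2 mural and 1 cardiomyocyte markers higher, and endothelial markers 1 each way. In 3D-2D-3D against 3D-2D-2D, 4 endothelial, 3 mural and 5 fibroblast markers were called lower and 1 mural marker higher. At 5 days mural markers summed to 545 to 744 CPM in 3D-5days and 1424 to 1664 CPM in 2D-5days, with 2 called higher and 2 lower, and 1 fibroblast marker was called higher, 2 fibroblast and 1 cardiomyocyte markers lower. Of 8 cycling markers 7 were called lower in 3D against 2D and 7 in 3D-5days against 2D-5days, with summed levels of 51.7 to 254 CPM in 3D and 1122 to 1278 CPM in 2D, and 62.9 to 138 CPM in 3D-5days and 144 to 186 CPM in 2D-5days. Between 3D-2D-3D, at 71.1 to 75.8 CPM, and 3D-2D-2D, at 167 to 170 CPM, 7 were called lower as well. Their part in the changes of the members was not tested.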

How the data were processed

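The authors deposited whole-number read counts per gene for all RNA libraries in 1 table, not normalized. Per the submitters' processing notes the tools were TopHat, Bowtie, HTSeq and MACS2, without versions, and the build was mm10. The annotation and the strand setting were not given in the sources used here. From the 24421 gene rows (5 summary rows and no other column were left out; 25 symbols had turned into dates), edgeR 4.0.16 in R 4.3.3 fitted all 29 libraries with 10 group means (filterByExpr, 14036 genes; TMM factors 0.868 to 1.10; robust quasi-likelihood test; two-sided; Benjamini-Hochberg adjustment over all genes tested; called at an adjusted p under 0.05). Standard errors are the log2 fold change over the root of F. CPM values use effective library totals. The counts carry no molecular identifiers, and the depth limits the precision of low genes.

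The members and lists were chosen with earlier results of these data known. Values in every library are given for the 6 glycolytic and 6 oxygen-sensing members with the widest range of group means. Of each longer list up to 4 called genes with the largest change in 3D against 2D are named. Deviations from group means correlated between libraries of the same number in 3D and 2D (0.141 to 0.233), the 5-day groups (0.288 to 0.572) and the substrates (0.191 to 0.753). All these pairs were above 0.1. Libraries of different numbers had negative values in some pairs and values as high in others. Examples of the latter are 3D library 2 with 2D library 1 (0.186) and 3D-5days library 3 with 2D-5days library 2 (0.346). Another is 8 kPa library 2 with 0.5 kPa library 1 (0.502). The values therefore do not show that equal numbers mark matched libraries. DESeq2 1.42.0, other scalings and filters, fits of the compared groups alone, the replicate block, subsets of libraries and leaving out each library were tried. The scripts were tested on simulated data.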

Additional observations from a re-analysis of the deposited data

Results flagged for a closer look

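For 13 members the difference between the 3D effect at 5 days (3D-5days minus 2D-5days) and the 3D effect with no stated time (3D minus 2D) was itself past the threshold of edgeR's quasi-likelihood test, where 25.5% of all genes were. The log2 difference was positive for Car12 (1.45), Slc2a1 (1.39), Slc2a3 (1.24), Pgk1 (1.07), Pkm (1.06), Ero1l (0.98), Slc16a1 (0.82), Egln1 (0.64) and Hk1 (0.40). It was negative for Pdk4 (-3.37), Eno2 (-1.59), Ldhb (-1.54) and Epas1 (-1.45). With any 1 of the 12 libraries left out, 10 of the 13 calls stood. Egln1 lost its call in 8 of those runs (0.50 to 0.67), Hk1 in 8 (0.31 to 0.40) and Slc16a1 in 7 (0.71 to 0.83). Library 1 of the 5-day groups and libraries 1 and 2 of 3D had the most macrophage marker RNA of their groups, and the part of this in the differences was not tested.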

How the results depend on the processing

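Under each alternative the number of called members was set beside that of the fit reported. The replicate block, fitted to the compared groups alone, gave 28 called members in 3D-2D against 3D (70.5% of all genes called), 21 in 3D-2D against 2D (45.2%), 29 in 3D-2D-3D against 3D-2D (67.9%), 29 in 3D-2D-3D against 3D-2D-2D (50.1%), 29 at 5 days (39.6%) and 3 in 64 kPa against 8 kPa (4.73%). It lowered the count from 13 to 11 in 3D against 2D (37.9%) and from 13 to 12 for the difference of effects (17.0%). Libraries of the same number had correlations of -0.127 to 0.131 in the comparisons with 3D-2D. In 3D-2D-3D against 3D-2D-2D these were -0.00785 to 0.00389. Such values do not show that equal numbers mark matched libraries. The 2 libraries of 3D-2D deviate from their mean by equal and opposite amounts, so with 3D-2D they cannot decide it. Fits of the compared groups alone gave 6 members in 3D against 2D (2625 genes called higher and 2994 lower). In 3D-2D against 2D they gave 2 (156 and 331), as did leaving out the filter on low counts (759 and 884 of 19837 genes). Replicates 1 and 2 alone gave 7 for the difference of effects (1009 genes called higher and 1208 lower). Replicate 3 alone leaves 1 library per compared group, so its calls are not counted here. In it all 19 called members of 3D-2D-3D against 3D-2D-2D kept their direction. So did all 16 at 5 days and all 13 for the difference of effects. Replicate 3 alone was not run where 3D-2D takes part, which has no library 3. It turned Ndrg1 (0.20) and Pfkfb4 (-0.31) round in 3D against 2D. Chosen after seeing the data, the 2 most alike libraries were summed in each group but 3D-2D and 3D-2D-2D. In brackets are the genes called higher and lower. The sums gave 7 members in 3D against 2D (2607 and 2898), 11 in 3D-2D against 3D (3371 and 3093) and 0 in 3D-2D against 2D (67 and 153). They gave 10 in 3D-2D-3D against 3D-2D (2667 and 2917) and 12 in 3D-2D-3D against 3D-2D-2D (2101 and 2008). At 5 days they gave 10 (1097 and 1415), and for the difference of effects 6 (702 and 677). Library 3 of 3D-2D-3D was also set against all of 3D-2D-2D, since these held both Xist and Y-linked reads. That leaves 1 library in a group, so its calls are not counted here. With 1 library left out the counts were 7 to 13, 9 to 16, 0 to 7, 10 to 14, 14 to 18, 13 to 15 and 10 to 14 in the same order of comparisons, and 0 between substrates. In these runs 3149 to 3479 genes were called higher and 3504 to 3873 lower in 3D against 2D. In 3D-2D against 3D the ranges were 3164 to 4080 higher and 2597 to 3771 lower. In 3D-2D against 2D they were 57 to 1404 and 118 to 1487. In 3D-2D-3D against 3D-2D they were 2407 to 2993 and 2692 to 3348. At 5 days 1646 to 2091 genes were called higher and 2009 to 2469 lower. In 3D-2D-3D against 3D-2D-2D the ranges were 2251 to 2590 and 2330 to 2578. For the difference of effects they were 1308 to 1865 and 1428 to 2022. Library totals without scaling factors shifted the median of all genes to 0.16 in 3D against 2D (4541 genes higher and 3130 lower, against 3746 and 3830), to -0.16 in 3D-2D against 3D (3250 and 4641, against 4044 and 3892) and to 0.13 at 5 days (2912 and 1877, against 2098 and 2450). Under that scaling no called member changed direction. Low counts limit Car9, Car12, Aldoc and Ankrd37, at about 1 CPM in many libraries. The cause of these shifts was not tested.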
